A study of Mus musculus with 44 samples.

Results

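Granins are acidic proteins stored in the dense core vesicles of neuroendocrine (NE) cells, and the prohormone convertases, carboxypeptidase E and their helper proteins cut and trim peptide precursors in the same vesicles. The 10 genes examined here are 5 granins and secretogranins (Chga, Chgb, Scg2, Scg3 and the convertase chaperone Scg5), the granin-related precursor Vgf, the convertases Pcsk1 and Pcsk2, the convertase inhibitor Pcsk1n, and Cpe. This list of 10 among the 31414 gene names in the data was chosen with earlier results of these data known. Its counts beside the share of all genes are therefore descriptions. All 10 passed the filter on low counts that left 14893 genes tested.

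RNA sequencing of gastric corpus biopsies from BalbC mice aged 13 months gave 13 KO/PEG, 11 KO/NTZ, 11 WT/PEG and 9 WT/NTZ libraries. KO mice lack the H+/K+ATPase beta subunit in every cell of the body, through homologous recombination at exon 1 of Atp4b, while WT mice carry the intact gene. NTZ is netazepide, named yf in the labels, an antagonist of the gastrin receptor that was injected under the skin repeatedly from youth, and PEG is the polyethylene glycol vehicle given alone. All mice were female according to the study's methods, and each biopsy mixed mucosal, stromal, nerve and muscle cells. The labels name more KO/PEG libraries than the methods name KO/PEG mice. One animal number stands on both members of a WT/PEG pair, and the number 110 stands on a library from each KO group. Otherwise each library of a group carries an animal number of its own in the labels, and p-values measure the spread between libraries.

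In the gastric corpus, gastrin from the antrum acts on enterochromaffin-like (ECL) cells, which store histamine and chromogranin A. Loss of acid secretion raises gastrin, and ECL cells multiply under long exposure to it. Ghrelin-producing X/A-like cells and somatostatin-producing D cells of the corpus also hold granins, and enteric neurons use many of the same vesicle proteins. In these biopsies a lower value of a gene may come from fewer cells of a type or from less RNA per cell, which cannot be told apart.

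Libraries held from 6065084 to 21945124 estimated counts. Atp4b, the targeted gene, was between 2140 and 5738 CPM (TMM-normalized counts, scaled to a common library total) in the WT libraries and between 2.28 and 40.6 CPM in the KO libraries. The share of counts from mitochondrial transcripts was between 5.83% and 11.8% in WT libraries and between 1.88% and 14.5% in KO libraries. Its median was 9.57% for WT/PEG and 9.42% for WT/NTZ, but 4.86% for KO/PEG and 3.82% for KO/NTZ, whose highest value was 7.04%. By this share 3 KO/PEG libraries were above every KO/NTZ library. The mitochondrial share thus differed with genotype, and fits of KO against WT that include it cannot fully separate it from genotype. Libraries also differed in how their genes deviated with GC content and length of the transcript. The GC slope, in log2 CPM for each 10 percentage points of GC, had a median of 0.42 in KO/NTZ, 0.15 in KO/PEG, -0.28 in WT/NTZ and -0.37 in WT/PEG. The length slope, in log2 CPM for each doubling of length, had medians of -0.23, -0.14, 0.19 and 0.26 in the same order. Of the 13 KO/PEG libraries, 1 was within the WT/PEG range of either slope, and KO/NTZ did not overlap with either WT group, so that genotype and these slopes cannot be told apart in comparisons of KO with WT. In 5 of the 9 WT/NTZ libraries the summed level of 4 squamous forestomach markers (Krt5, Krt14, Krt13, Sprr3) was above that of every library in the other groups.

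The stretches upstream of the start site are shown because Chgb and Pcsk1, which were both lower with NTZ in KO mice, and Scg2 carry the cyclic AMP response element (CRE) there. RefSeq promoters of GRCm38.p6, from 250 bases before to 50 bases after the start, were held for 8 of the 10 genes, all but Cpe and Vgf. The whole element, TGACGTCA, was found on the gene strand 72 bases before the start of Chgb, 68 before that of Scg2 and 78 before that of Pcsk1, against 1.79% of all 32851 promoters searched on both strands. Capitals mark TGACG or its reverse complement CGTCA, which overlap within the whole element. The first 3 lines hold 30 bases around the whole element. The last 3 lines run from 110 to 11 bases before the start of Chga, Pcsk2 and Pcsk1n, whose promoters do not hold that exact sequence.
Chgb (chr2:132781559-132781588, + strand, in an annotated Chgb exon of GENCODE vM21): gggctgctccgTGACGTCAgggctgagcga
Scg2 (chr1:79440076-79440105, - strand, in an annotated Scg2 exon): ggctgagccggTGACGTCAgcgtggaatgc
Pcsk1 (chr13:75089768-75089797, + strand, upstream of the gene): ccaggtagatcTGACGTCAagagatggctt
Chga (chr12:102554831-102554930, + strand, upstream of the gene): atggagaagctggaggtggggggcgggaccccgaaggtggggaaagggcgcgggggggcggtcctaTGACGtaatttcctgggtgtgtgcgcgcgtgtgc
Pcsk2 (chr2:143546023-143546122, + strand, upstream of the gene): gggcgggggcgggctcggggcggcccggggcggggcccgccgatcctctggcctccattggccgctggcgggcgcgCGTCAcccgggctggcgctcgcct
Pcsk1n (chrX:7919712-7919811, + strand, upstream of the gene): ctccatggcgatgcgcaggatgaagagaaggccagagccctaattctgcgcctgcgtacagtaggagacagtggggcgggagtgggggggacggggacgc

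The shorter motif TGACG stood 44 bases before the start of Chga, and on the other strand 34 bases before that of Pcsk2. In Chga it is part of TGACGTAA, which differs from the whole element only in its next-to-last base. Scg3 held TGACG 30 bases before its start. Scg5 held it 175 bases before and 19 bases after its start, and on the other strand 40 bases after. Of the 8 promoters only that of Pcsk1n held neither motif. TGACG was found on either strand in 20.8% of all promoters. Among the 3 genes with the whole element, Scg2 was lower in KO/PEG than in WT/PEG, Chgb was higher, and Pcsk1 did not pass the test. With NTZ in KO mice Chgb (-1.52) and Pcsk1 (-1.65) were lower on the log2 scale, and Scg2 (0.43) did not pass. Regulation through these motifs was not tested.

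Levels were compared between genes as counts for each kilobase of annotated transcript, scaled to the same total in every library. On this per-length scale Chga was the highest of the 10 genes in WT/PEG, with a median level of 267 (range 226 to 395). It was followed by Cpe with a median of 45.2, Scg5 with 22.1, Chgb with 12.6, Scg2 with 9.39, Scg3 with 4.42, Pcsk2 with 3.04, Pcsk1n with 2.81, Pcsk1 with 1.64 and Vgf with 0.403. Neighbours in this order overlapped between libraries for Scg5 and Chgb, Chgb and Scg2, Scg3 and Pcsk2, Pcsk2 and Pcsk1n, and Pcsk1n and Pcsk1. In KO/PEG the median per-length level was 1061 for Chga and 35.0 for Chgb, while Pcsk2, at 0.966, was the lowest of the 10. The summed level of the 10 genes was highest in KO/PEG (median 1203), followed by KO/NTZ (504), WT/PEG (382) and WT/NTZ (344). Chga alone made up 74.1% of it in WT/PEG and 89.5% in KO/PEG (medians), with 70.2% and 83.2% in the NTZ groups of the same genotypes.

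**Figure D1:**
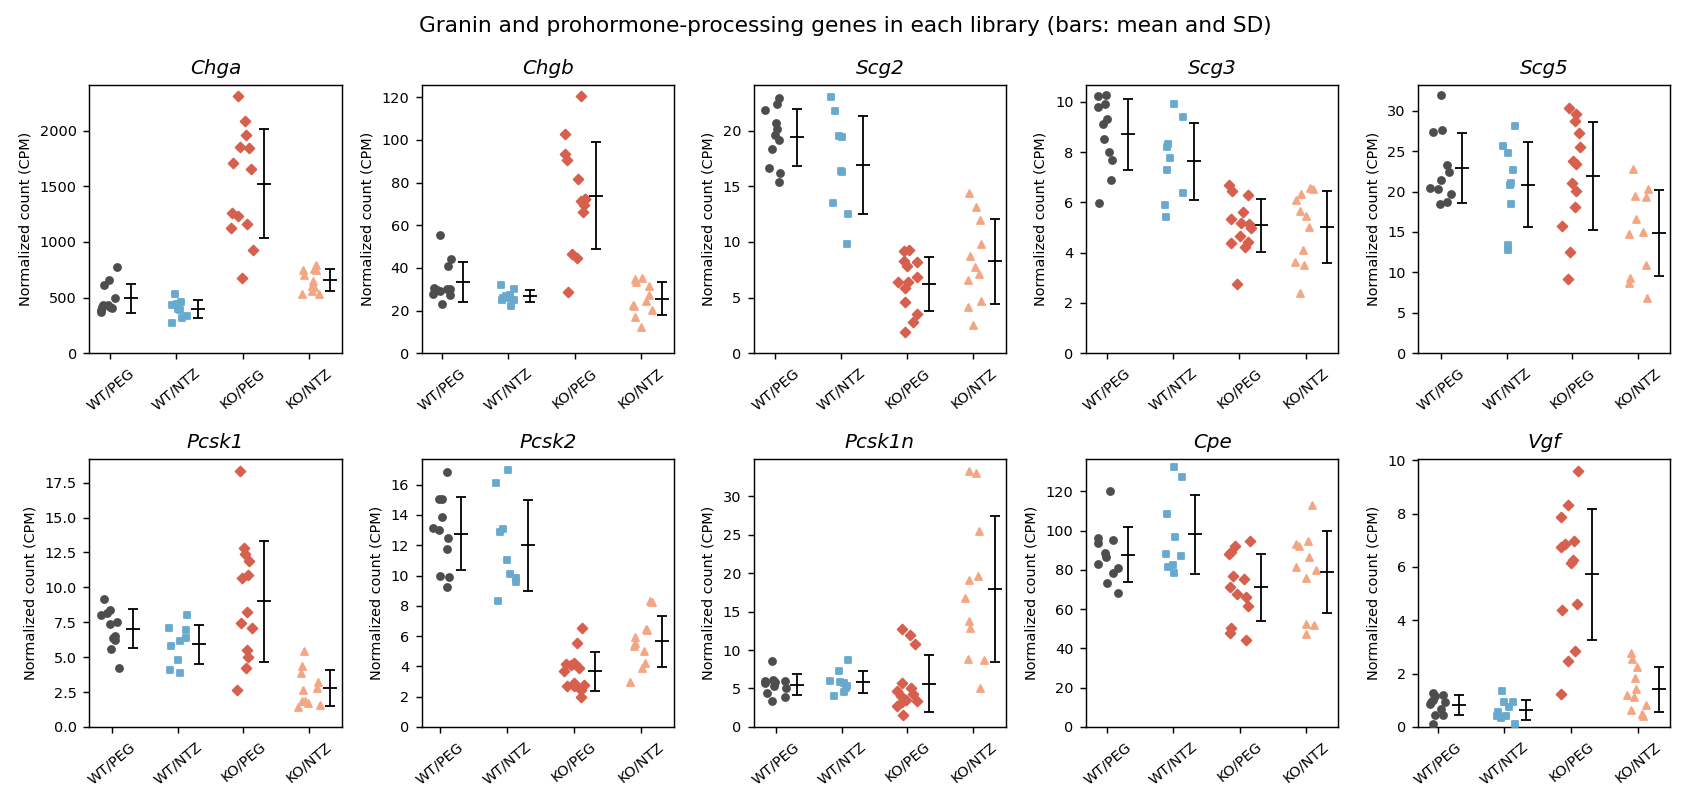
Normalized count (CPM, vertical axis) of each of the 10 genes in each library, by group, with the mean and SD of the group as bars. Chga, Chgb and Vgf are high in most KO/PEG libraries, Pcsk2 and Scg2 are low in all KO/PEG libraries, and Pcsk1n is high in most KO/NTZ libraries.

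The first comparison was of KO/PEG with WT/PEG, which asks how the genes differed without the drug. Of the 10 genes, 7 passed edgeR's quasi-likelihood F-test after Benjamini-Hochberg adjustment, 3 higher (Chga, Chgb and Vgf) and 4 lower (Scg2, Scg3, Pcsk2 and Cpe) in KO/PEG. Over all genes tested 74.7% passed in this comparison, 37.5% higher and 37.2% lower, so that the count is near the background. With library totals in place of TMM the median of all genes moved by 0.29 on the log2 scale, and 7272 genes were higher and 2962 lower, with 4 of the 10 genes higher (Pcsk1 added) and 3 lower (Cpe lost). The granins divided, with chromogranins higher and secretogranins lower or not different by the test. How many of all genes lay without overlap between the groups was not counted, so separations given below are only descriptions.

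Chromogranin A (Chga, ENSMUSG00000021194, chromosome 12, 102554969 to 102565028 of GRCm38), the general marker of NE cells, was between 371 and 779 CPM in WT/PEG with a median of 430, and between 678 and 2310 CPM in KO/PEG with a median of 1659. The highest WT/PEG value was exceeded in 12 of the 13 KO/PEG libraries, so the groups barely overlapped. The log2 fold change was 1.63 (SE 0.16, edgeR adjusted p = 7.18e-12). Chromogranin B (Chgb, ENSMUSG00000027350, chromosome 2, 132781278 to 132795079), which helps to form the vesicle core, was between 23.01 and 55.4 CPM in WT/PEG with a median of 29.9, and between 28.9 and 120 CPM in KO/PEG with a median of 72.2. The groups overlapped, and 10 of 13 KO/PEG values exceeded all of WT/PEG, with an estimated log2 fold change of 1.14 (SE 0.17, edgeR adjusted p = 1.46e-07).

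Vgf (ENSMUSG00000037428, chromosome 5, 137026392 to 137033351), the precursor of several neuropeptides, was rare in WT mice. It was between 0.107 and 1.26 CPM in WT/PEG with a median of 0.949, which was 1 to 13 estimated counts per library, and between 1.24 and 9.58 CPM in KO/PEG with a median of 6.25. In 12 of 13 KO/PEG libraries it exceeded the whole WT/PEG range, and the change of 2.79 on the log2 scale (SE 0.34, edgeR adjusted p = 2.43e-09) was larger than that of the other 9 genes. Some WT libraries held no more than 3 counts of Vgf, the floor set for a signal above counting error.

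Secretogranin II (Scg2, ENSMUSG00000050711, chromosome 1, 79434669 to 79440120), the precursor of secretoneurin, was between 15.4 and 22.96 CPM in WT/PEG with a median of 19.6, and between 1.87 and 9.29 CPM in KO/PEG with a median of 6.41. All 13 KO/PEG libraries were below all 11 WT/PEG libraries, with a log2 fold change of -1.64 (SE 0.21, edgeR adjusted p = 7.99e-09). Secretogranin III (Scg3, ENSMUSG00000032181, chromosome 9, 75643189 to 75684056), which ties chromogranin A to the vesicle membrane, was between 5.99 and 10.3 CPM in WT/PEG with a median of 9.10, and between 2.74 and 6.68 CPM in KO/PEG with a median of 5.15. The groups overlapped, with 10 of 13 KO/PEG libraries below every WT/PEG library, and the log2 fold change was -0.77 (SE 0.13, edgeR adjusted p = 3.22e-06). When the length slope was added as a covariate, the log2 fold change of Scg2 was -0.67 (edgeR adjusted p = 0.15) and that of Scg3 was -0.13 (edgeR adjusted p = 0.686), so neither then passed. With the GC slope in its place, Scg3 did not pass either (-0.26, edgeR adjusted p = 0.158).

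Enteric neurons and glia are further sources of secretogranins. All 11 of 11 tested enteric neuron markers were lower in KO/PEG than in WT/PEG. Among them were Nos1, which makes nitric oxide (-2.33 on the log2 scale), Stmn2 (-1.87), Nefl (-2.20) and Prph (-1.72). Of 6 glia markers 4 were lower. Of all genes tested 37.2% were lower, and 74.7% passed in either direction. The summed per-length level of the 12 neuron markers, none of them at 0, had a median of 36.6 in WT/PEG and 16.8 in KO/PEG. That of the 6 glia markers had medians of 26.5 and 25.1. All 4 smooth muscle markers were lower too (Myh11 -1.66, Acta2 -0.81, Actg2 -0.61 and Des -0.46), with a median sum of 1198 in WT/PEG and 696 in KO/PEG. Within groups Scg2 had r = 0.63 with the smooth muscle sum and r = 0.53 with the neuron sum, Scg3 had r = 0.35 and 0.25, and Cpe had r = 0.74 and 0.49 (44 libraries). The part of these cells in the lower values of Scg2, Scg3, Pcsk2 and Cpe was not tested.

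Prohormone convertase 2 (Pcsk2, ENSMUSG00000027419, chromosome 2, 143546156 to 143816285), which matures somatostatin and many neuropeptides, was between 9.26 and 16.9 CPM in WT/PEG with a median of 13.0, and between 1.97 and 6.54 CPM in KO/PEG with a median of 3.71. The groups did not overlap, and the log2 fold change was -1.80 (SE 0.16, edgeR adjusted p = 1.79e-12). It passed under all 13 alternatives, with log2 fold changes from -1.92 to -1.41. Somatostatin (Sst), made by D cells, was also lower in KO/PEG (-1.002 on the log2 scale, edgeR adjusted p = 0.000946), while the D cell marker Hhex did not pass. Prohormone convertase 1 (Pcsk1, ENSMUSG00000021587, chromosome 13, 75089826 to 75134861), the convertase of the regulated secretory route that acts early, was between 4.23 and 9.18 CPM in WT/PEG with a median of 7.38. In KO/PEG it ranged more widely, from 2.63 to 18.4 CPM with a median of 8.26, with 6 libraries above and 2 below every WT/PEG library. Its log2 fold change of 0.35 (95% interval -0.09 to 0.80, edgeR adjusted p = 0.142) did not pass, but it did pass with library totals only (0.68), the mitochondrial share (0.80), the length slope (1.61) or the GC slope (1.26) in the fit.

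The remaining 3 genes differed less. Carboxypeptidase E (Cpe, ENSMUSG00000037852, chromosome 8, 64592542 to 64693054), which trims basic residues after the convertases, was between 68.3 and 120 CPM in WT/PEG and between 44.3 and 94.8 CPM in KO/PEG. Its log2 fold change of -0.30 (SE 0.13, edgeR adjusted p = 0.0365) passed, but held in only 5 of 13 alternatives. Scg5 (ENSMUSG00000023236, chromosome 2, 113776362 to 113829121), the chaperone of the Pcsk2 product, had medians of 21.4 CPM in WT/PEG and 23.5 CPM in KO/PEG, and its log2 fold change was -0.06 (95% interval -0.41 to 0.29, edgeR adjusted p = 0.765). Pcsk1n (ENSMUSG00000039278, chromosome X, 7919822 to 7924410), whose product inhibits the Pcsk1 enzyme, had medians of 5.65 CPM in WT/PEG and 4.29 CPM in KO/PEG, and its log2 fold change was 0.03 (95% interval -0.52 to 0.58, edgeR adjusted p = 0.925). With the mitochondrial share in the fit Pcsk1n was lower in KO/PEG (-1.08, edgeR adjusted p = 1.03e-05). The value was -2.37 with the length slope and -1.62 with the GC slope. These covariates differed between the genotypes, so the fits cannot fully separate them from genotype.

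**Figure D2:**
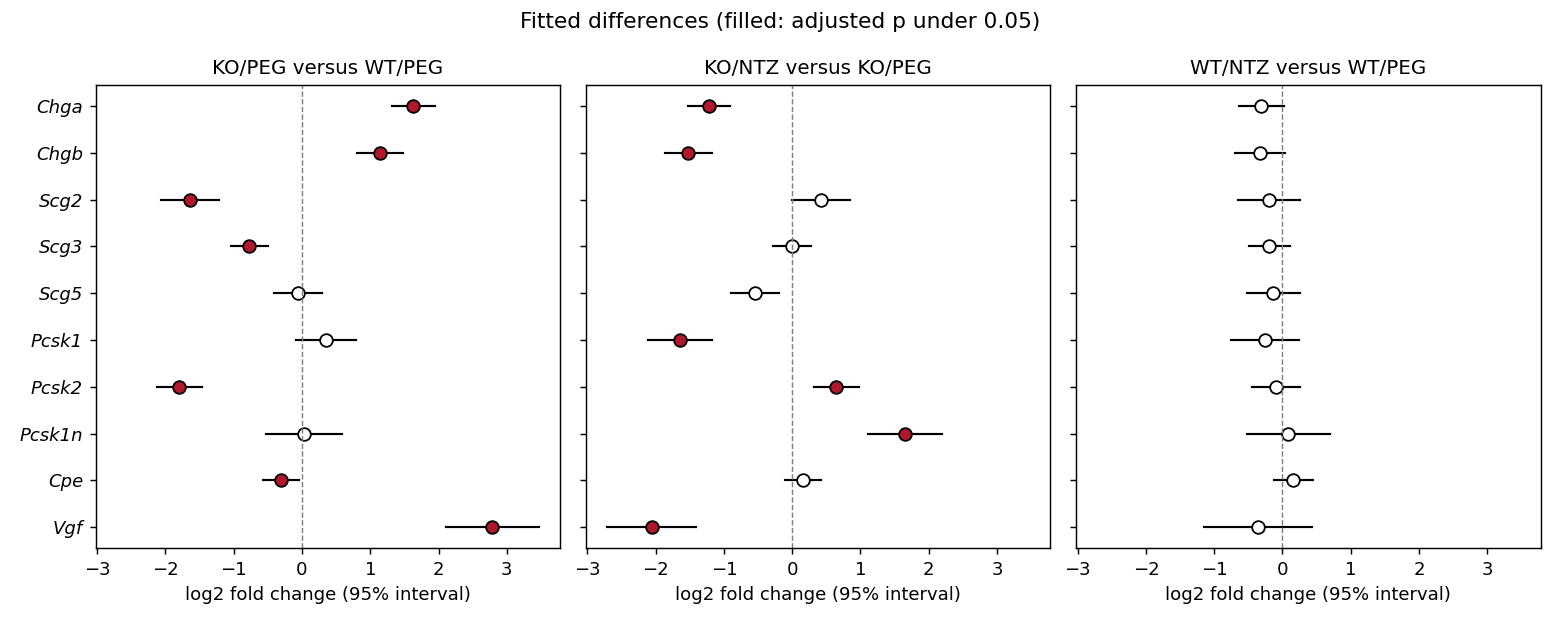
Log2 fold change of each gene with its 95% interval for KO/PEG versus WT/PEG, KO/NTZ versus KO/PEG and WT/NTZ versus WT/PEG (horizontal axis), filled where the adjusted p was under 0.05. In the middle panel Chga, Chgb, Pcsk1 and Vgf lie below 0 and Pcsk1n and Pcsk2 above it, while no gene is filled in the right panel.

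The second comparison was of KO/NTZ with KO/PEG, the effect of gastrin receptor antagonism in KO mice. Of the 10 genes 6 passed, against 5.57% of all genes tested (2.97% higher and 2.6% lower). Chga, Chgb, Pcsk1 and Vgf were lower in KO/NTZ, and Pcsk1n and Pcsk2 were higher. With library totals the split over all genes was 234 higher and 401 lower, against 442 and 387 with TMM. In the 13 alternatives of normalization, filter, libraries and covariates, Chga, Chgb, Pcsk1, Vgf and Pcsk1n passed with the same direction each time.

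Chga was between 529 and 791 CPM in KO/NTZ, with a median of 648, against a median of 1659 CPM in KO/PEG. The groups overlapped through 1 KO/PEG library, the other 12 lying above every KO/NTZ library, and the log2 fold change was -1.22 (SE 0.15, edgeR adjusted p = 9.62e-07). Chgb had a median of 72.2 CPM in KO/PEG and of 24.5 CPM in KO/NTZ (range 12.5 to 35.4), a log2 fold change of -1.52 (SE 0.17, edgeR adjusted p = 1.3e-07). Again 12 of 13 KO/PEG libraries were above every KO/NTZ library. The ratio of Chga to Chgb in per-length levels had a median of 20.9 in WT/PEG, 28.9 in KO/PEG and 34.6 in KO/NTZ.

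Vgf was between 0.416 and 2.76 CPM in KO/NTZ with a median of 1.18, and 11 of 13 KO/PEG libraries were above all of these. Its log2 fold change was -2.06 (SE 0.32, edgeR adjusted p = 5.48e-05). These KO/NTZ values rest on 5 to 43 estimated counts per library. Pcsk1 was between 1.40 and 5.41 CPM in KO/NTZ with a median of 2.66, and every KO/NTZ library was below the KO/PEG median. Its log2 fold change was -1.65 (SE 0.23, edgeR adjusted p = 8.84e-06).

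Pcsk1n moved the other way. It was between 5.10 and 33.3 CPM in KO/NTZ with a median of 16.7, against 1.49 to 12.7 CPM in KO/PEG. In 8 of 11 KO/NTZ libraries it was above every KO/PEG library, with a log2 fold change of 1.66 (SE 0.27, edgeR adjusted p = 8.61e-05). Pcsk1n followed the GC slope, the length slope and the mitochondrial share of the libraries more closely than the other 9 genes. After group means were removed, its log2 CPM correlated with the GC slope (r = 0.87), the length slope (r = -0.77) and the log2 mitochondrial share (r = -0.82) over 44 libraries, which were prepared with the same kit and differ in depth. With the GC slope in the fit its log2 fold change was 1.15 (edgeR adjusted p = 7.79e-07), with the length slope 1.57 and with the mitochondrial share 1.40. The GC slope, the length slope and the mitochondrial share all differed in median between KO/PEG and KO/NTZ, and the part that remains of them in these values was not tested.

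**Figure D3:**
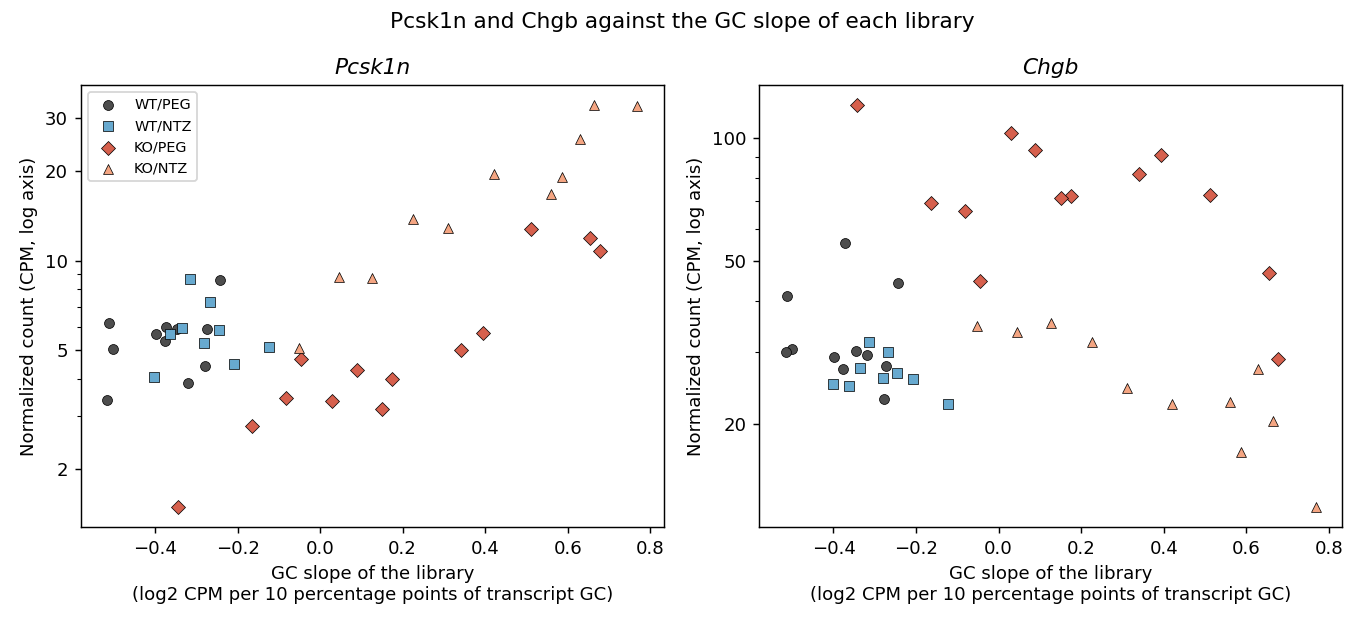
Normalized count (CPM, log axis) of Pcsk1n and Chgb against the GC slope of each library, by group. Pcsk1n rises with the GC slope within the KO groups (r = 0.87 over 44 libraries after group means were removed) and Chgb falls with it (r = -0.58), and at similar slopes the KO/NTZ libraries lie above the KO/PEG libraries for Pcsk1n and below them for Chgb.

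Pcsk2 was between 2.94 and 8.31 CPM in KO/NTZ with a median of 5.53, against a median of 3.71 CPM in KO/PEG. The groups overlapped widely, and its log2 fold change was 0.64 (SE 0.16, edgeR adjusted p = 0.0129). It did not pass with library totals only, with only these groups in the fit, with only the most abundant transcript, or without the 3 KO/PEG libraries of high mitochondrial share, where its adjusted p from edgeR was between 0.0512 and 0.0867. Sst rose together with it (0.89 on the log2 scale, edgeR adjusted p = 0.0368), while Hhex, the other D cell marker, did not pass. Also higher were 5 of 11 enteric neuron markers, among them Uchl1 (1.07) and Prph (1.48), and 2 of 4 smooth muscle markers (Acta2, 0.76, and Des, 0.89). Over all genes tested 2.97% were higher in this comparison. The summed per-length level of the neuron markers had a median of 31.5 in KO/NTZ and 16.8 in KO/PEG, while that of the D cell markers Sst and Hhex was 535 and 361. Within groups Pcsk2 had r = 0.69 with the D cell sum, 0.56 with the ECL sum, 0.46 with the smooth muscle sum and 0.21 with the neuron sum (44 libraries). The part of these cells in the higher Pcsk2 was not tested.

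Scg5 was lower in all 11 KO/NTZ libraries than the KO/PEG median, with a log2 fold change of -0.54 (95% interval -0.89 to -0.19), but its adjusted p of 0.0551 from edgeR did not pass. It passed with RLE size factors (-0.55), with DESeq2 (-0.56) and with the length slope (-0.52), at adjusted p from 0.022 to 0.0413. Scg2 had a log2 fold change of 0.43 (95% interval 0.00 to 0.85, edgeR adjusted p = 0.199), and it passed with the GC slope in the fit (0.70, edgeR adjusted p = 0.0143). For Cpe the value was 0.15 (95% interval -0.11 to 0.42, edgeR adjusted p = 0.454). The estimate for Scg3 was -0.00 (95% interval -0.28 to 0.27, edgeR adjusted p = 0.991), with KO/NTZ between 2.39 and 6.59 CPM. None of these 4 intervals reached a log2 value of 1 in either direction.

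The balance of the convertases separated KO/PEG from all other groups. On the per-length scale the ratio of Pcsk1 to Pcsk2 was between 1.14 and 4.55 in KO/PEG with a median of 2.13, so that Pcsk1 exceeded Pcsk2 in 13 of 13 libraries. The ratio was between 0.308 and 0.695 in WT/PEG, between 0.350 and 0.634 in WT/NTZ and between 0.228 and 0.666 in KO/NTZ, with medians of 0.545, 0.434 and 0.455. No library outside KO/PEG reached a ratio of 1. The ratio was chosen after its values were seen and is given as a description. The inhibitor Pcsk1n stood at a median of 20.6 times the level of Pcsk1 in KO/NTZ (range 2.16 to 54.0), against 1.07 times in KO/PEG (range 0.186 to 9.38), 1.71 times in WT/PEG and 2.36 times in WT/NTZ. The chaperone Scg5 stood at a median of 7.05 times the level of Pcsk2 in WT/PEG, 23.5 times in KO/PEG and 10.4 times in KO/NTZ.

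**Figure D4:**
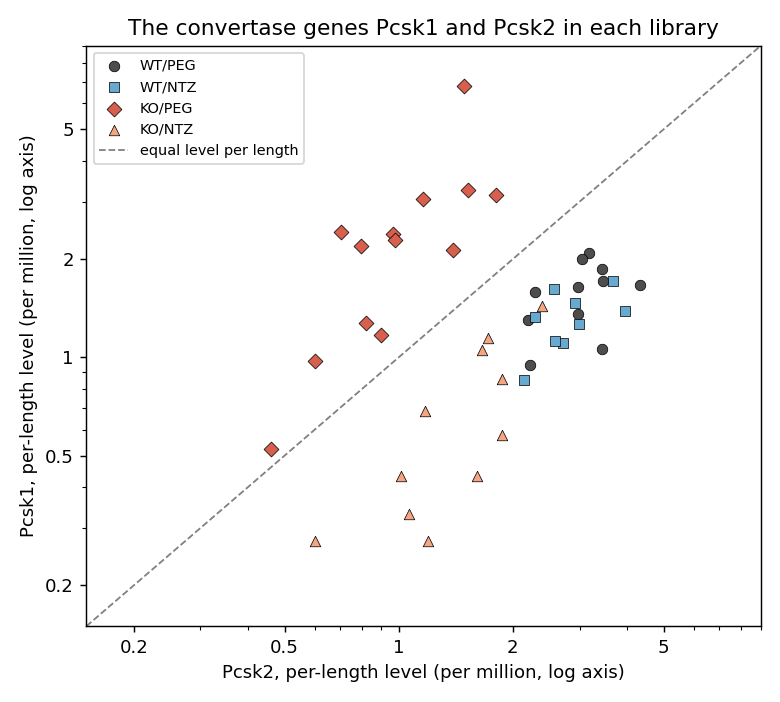
Per-length level of Pcsk1 against that of Pcsk2 in each library, by group, on log axes, with a dashed line where the levels are equal. All 13 KO/PEG libraries lie above the line and the libraries of the other groups below it, and KO/NTZ libraries are lower in Pcsk1 than most KO/PEG libraries.

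In WT mice NTZ changed none of the 10 genes by the test (0 of 10, against 1.03% of all genes tested, 1.02% higher and 0.00671% lower). At an unadjusted p under 0.05 the count was also 0, and DESeq2 gave 0. The log2 fold changes ran from -0.36 for Vgf to 0.16 for Cpe. For Chga the value was -0.31 (95% interval -0.64 to 0.02, edgeR adjusted p = 0.733), with 273 to 529 CPM in WT/NTZ. For Chgb it was -0.33 (95% interval -0.70 to 0.04, edgeR adjusted p = 0.769). For Pcsk1 it was -0.25 (95% interval -0.75 to 0.24, edgeR adjusted p = 0.933). Fewer libraries were in WT/NTZ, and 5 of its 9 carried the squamous markers.

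Whether NTZ acted unequally in KO and WT mice was tested as an interaction. It passed for 4 of the 10 genes, 3 with a negative and 1 with a positive difference, against 0.953% of all genes tested (0.712% negative and 0.242% positive). The log2 difference was -0.91 for Chga (edgeR adjusted p = 0.0303), -1.19 for Chgb (edgeR adjusted p = 0.0103), -1.39 for Pcsk1 (edgeR adjusted p = 0.0255) and 1.57 for Pcsk1n (edgeR adjusted p = 0.043). For Vgf it was -1.70 and did not pass (edgeR adjusted p = 0.0909). Without the 5 WT/NTZ libraries rich in squamous markers, which leaves 4, none of the 10 passed, with values of -1.11 for Chga, -1.22 for Chgb, -1.55 for Pcsk1 and 1.62 for Pcsk1n and adjusted p from 0.058 to 0.287. Over 12 alternatives Chgb and Pcsk1 passed in 11, Chga in 9, Pcsk1n in 7 and Vgf in 6. With the WT/PEG pair of one animal number summed, 3 of the 10 passed, and Pcsk1n did not (1.58, edgeR adjusted p = 0.0551). With library totals 5 of the 10 passed, and over all genes 11 differences were positive and 154 negative, against 36 and 106 with TMM.

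Treated KO mice were also compared with WT mice. In KO/NTZ versus WT/PEG 8 of 10 genes passed, against 76.9% of all genes tested (38.5% higher and 38.5% lower), with Chga (0.41) and Pcsk1n (1.69) higher and Chgb (-0.38), Scg2 (-1.21), Scg3 (-0.77), Scg5 (-0.60), Pcsk1 (-1.29) and Pcsk2 (-1.16) lower on the log2 scale. All 11 KO/NTZ libraries were below all 11 WT/PEG libraries for Scg2 and Pcsk2. Pcsk1, which did not pass between the PEG groups, was in KO/NTZ below every WT/PEG library in 9 of 11 libraries. Vgf missed the threshold here (0.73, edgeR adjusted p = 0.0567) but passed in 4 of 10 alternatives. Chgb, with an edgeR adjusted p of 0.047, lost its call in 4 of 10, with library totals, with no filter, without the libraries numbered 110 and with the mitochondrial share (-0.0074). With library totals the split over all genes was 6658 higher and 4147 lower, against 5728 and 5727. In KO/NTZ versus WT/NTZ 8 of 10 genes passed, against 72.4% of all genes tested (35.6% higher and 36.8% lower; with library totals 6050 were higher and 3913 lower, against 5303 and 5480). Chga (0.72), Pcsk1n (1.60) and Vgf (1.09) were higher and Scg2 (-1.01), Scg3 (-0.58), Scg5 (-0.47), Pcsk1 (-1.04) and Pcsk2 (-1.06) lower, and Chgb was -0.05 (95% interval -0.42 to 0.32). All 11 KO/NTZ libraries were above all 9 WT/NTZ libraries for Chga and below them for Pcsk2. The share of all genes that separate in this way was not counted for either comparison, so these separations are descriptions. With the mitochondrial share in the fit 4 of 10 genes passed against WT/PEG and 3 of 10 against WT/NTZ. Of all 14893 genes tested 8159 and 6837 then passed, against 11455 and 10783 without this covariate. Pcsk1n was then 0.32 and 0.26 on the log2 scale. Because the mitochondrial share differed with genotype, these fits cannot fully separate it from genotype. These comparisons share KO/NTZ libraries with the preceding ones and are not independent of them.

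Animal numbers below 100 and from 100 up were spread unevenly over the groups, and what they stand for is not given in the sources used here. Below 100 were 0 of 11 WT/PEG, 5 of 9 WT/NTZ, 6 of 13 KO/PEG and 10 of 11 KO/NTZ libraries. KO/NTZ versus WT/PEG thus nearly coincides with this split, and neither it nor the interaction could be checked within it. Within numbers below 100 (6 KO/PEG and 10 KO/NTZ libraries), the same 6 genes passed between KO/NTZ and KO/PEG, with log2 fold changes of -0.99 for Chga, -1.63 for Pcsk1, -1.81 for Vgf, 1.89 for Pcsk1n and 0.94 for Pcsk2. Within numbers from 100 up, KO/PEG versus WT/PEG gave 1.83 for Chga, 2.95 for Vgf and -1.57 for Pcsk2, all of which passed. Chga was higher in the KO/PEG animals numbered from 100 up (median 1853 CPM, n = 7) than in those below 100 (median 1248 CPM, n = 6), a description without a test.

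The genes also varied together within groups. After group means were subtracted from log2 CPM, Chgb and Pcsk1 had the highest correlation among the 10 genes (r = 0.84 over 44 libraries), followed by Chgb and Scg5 (r = 0.82) and Scg5 and Pcsk1 (r = 0.80). Chga was less closely tied to them, with r = 0.60 for Chgb and r = 0.46 for Pcsk1. Pcsk1n was negatively related to 7 of the other 9 genes, most to Pcsk1 (r = -0.64). The negative relation was seen only in the KO libraries, where r between Pcsk1n and Pcsk1 was -0.78, against 0.22 in the WT libraries. In the WT libraries Pcsk1n was positively related to all of the other 9 genes, with r = 0.68 for Scg5, 0.60 for Chga, 0.57 for Chgb and 0.15 for Vgf. For the 7 genes the sign was thus opposite between the genotypes. Vgf stood apart, with r between -0.08 and 0.12 for 7 genes, 0.34 for Pcsk1n and 0.49 for Chga. In the WT libraries alone, where its counts were low, its r was 0.63 with Scg5, 0.47 with Scg3, 0.46 with Pcsk1 and 0.39 with Chgb, against -0.18, -0.15, -0.01 and 0.02 in the KO libraries. The libraries differ in depth and in the slopes given above, which enter every gene of a library, so these correlations are descriptions.

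**Figure D5:**
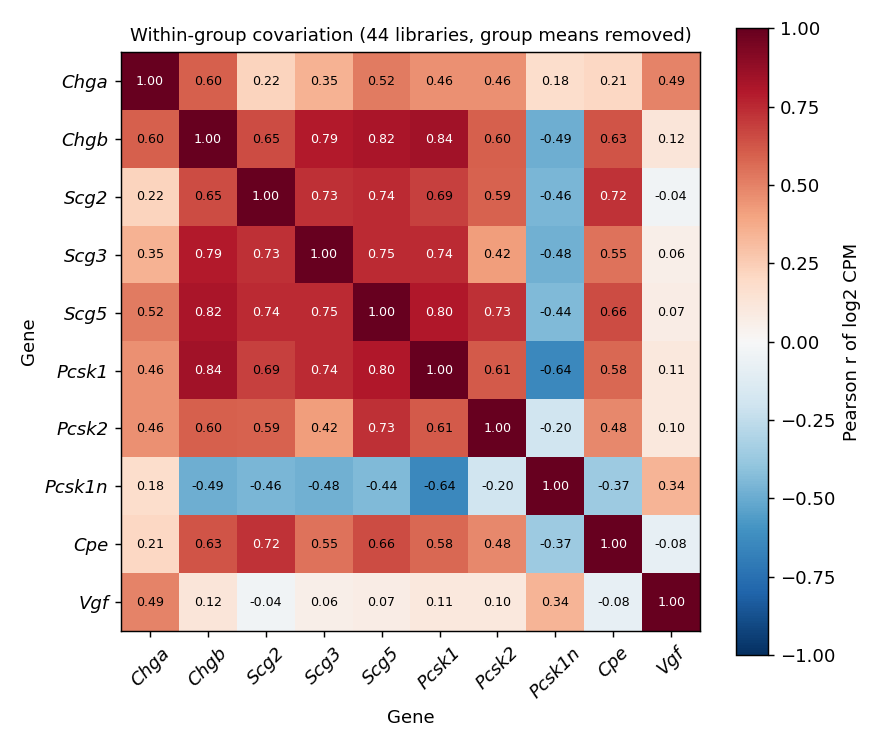
Pearson correlation of log2 CPM between each pair of the 10 genes over 44 libraries after group means were subtracted, printed in each square. Chgb, Scg2, Scg3, Scg5, Pcsk1, Pcsk2 and Cpe form a block of positive values, Pcsk1n is negative with most of them, and Vgf is between -0.08 and 0.12 with all but Chga and Pcsk1n.

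ECL cell markers moved in the same comparisons. Histidine decarboxylase (Hdc), which makes histamine, was 1.39 higher on the log2 scale in KO/PEG than in WT/PEG (edgeR adjusted p = 2.39e-07) and -1.97 in KO/NTZ versus KO/PEG (edgeR adjusted p = 1.02e-07). Of the 4 ECL markers (Hdc, Slc18a2, Cckbr and Adcyap1r1), all but Slc18a2 were higher in the first comparison (3 of 4, against 37.5% of all genes tested). All but Adcyap1r1 were lower in the second (3 of 4, against 2.6% of all genes tested). None of the 4 was at 0. Their summed per-length level was highest in KO/PEG (median 59.8, against 25.6 in WT/PEG, 18.5 in KO/NTZ and 19.5 in WT/NTZ). Within groups the log2 of this sum correlated with Scg5 (r = 0.80), Chgb (r = 0.80), Pcsk1 (r = 0.77) and Chga (r = 0.48), and with Vgf it had r = -0.01 (44 libraries). It also correlated with Scg3 (r = 0.67), Scg2 (r = 0.61), Pcsk2 (r = 0.56) and Cpe (r = 0.55), which were lower in KO/PEG while the ECL markers were higher, and with Pcsk1n it had r = -0.62. Chga had a similar r with the summed D cell markers (0.47) and with the summed X/A-like cell markers (0.44). With the D cell sum Scg5 had r = 0.54, Chgb 0.40 and Pcsk1 0.32. The part of ECL, D or X/A-like cells in the values of these genes was not tested.

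Outside the 10 genes, Hdc was the gene most like Chga within groups (r = 0.79), followed by Vtn (r = 0.79) and the vesicle gene Syp (r = 0.76). For Chgb these were Gc, Pappa2 and Hdgfl3 (r from 0.81 to 0.85), and for Pcsk1 Hdgfl3, Ermp1 and Slc12a2 (r from 0.83 to 0.85). Pcsk2 was most like Gfra1, which encodes a receptor for a glial neurotrophic factor, with r = 0.79. The genes most like Pcsk1n were H2afj, Scand1 and Nenf (r from 0.91 to 0.92). No gene exceeded r = 0.60 with Vgf. All of these r are over 44 libraries.

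Other genes of precursor maturation and of the vesicle are given by their counts, to be read against 5.57% of all genes passed with NTZ in KO mice and 74.7% between the PEG groups. Of 15 tested genes for maturation outside the 10 (other convertases, carboxypeptidases and amidating or modifying enzymes), none passed in KO/NTZ versus KO/PEG by edgeR, 1 had an unadjusted p under 0.05, and the median log2 fold change was 0.10 against -0.01 for all genes tested. In KO/PEG versus WT/PEG 13 of these 15 passed, 7 higher and 6 lower, with the widely expressed convertase Furin at -2.90, Pcsk6 at -1.30, the glutamine cyclase Qpct at -2.20 and the protease Ctsl at 1.27. Of 29 dense core vesicle genes 4 passed with NTZ in KO mice, 2 lower (the monoamine transporter Slc18a2, -0.78, and the vesicle membrane protein Ptprn, -0.47) and 2 higher (Vamp2, 0.57, and Syt4, 0.98). In KO/PEG versus WT/PEG 7 of the 29 were higher and 14 lower, with Rph3al (-1.28), Syt4 (-2.45), Ccdc186 (-0.91) and Syp (-0.85) among the latter. The endocrine transcription factor Insm1 was the only one of 14 to pass with NTZ in KO mice (-0.81, edgeR adjusted p = 0.0403).

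Among 16 tested peptide precursors, the substrates of these enzymes, 3 passed in KO/NTZ versus KO/PEG, all higher, against 2.97% of all genes: neuromedin U (Nmu), proenkephalin (Penk, 1.04) and Sst (0.89). Nmu had a median of 2 counts per library in KO/PEG, under the floor of 3, and of 22 counts in KO/NTZ, so its fitted change of 3.21 is uncertain. Their median log2 fold change was 0.42. Ghrelin (Ghrl) and its acylating enzyme Mboat4, the markers of X/A-like cells, were higher in KO/PEG than in WT/PEG (0.43 and 0.89), and neither passed with NTZ in KO mice. Summed on the per-length scale, these markers were highest in KO/NTZ (median 11689), followed by KO/PEG (8875), WT/NTZ (5735) and WT/PEG (5723). Within groups the log2 of this sum had r = 0.44 with Chga, 0.27 with Chgb and 0.21 with Vgf (44 libraries). The part of X/A-like cells in the values of these 3 genes was not tested.

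Markers of the other cells of these biopsies were counted in the same comparisons. In KO/PEG versus WT/PEG, 5 of 5 parietal cell, 3 of 4 chief cell, 3 of 4 surface mucous and 1 of 4 fibroblast markers were lower, while 1 of 4 chief cell, 4 of 4 neck cell and SPEM (spasmolytic polypeptide-expressing metaplasia), 3 of 5 immune and 1 of 2 tested enterochromaffin cell markers were higher. With NTZ in KO mice, 1 of 5 parietal cell, 2 of 4 fibroblast and 1 of 5 immune markers were lower, and none of the chief, neck and SPEM, surface mucous, enterochromaffin or squamous markers passed. The 1 tested antral marker passed in neither comparison. Of all genes tested, 37.2% were lower and 37.5% higher in KO/PEG versus WT/PEG. With NTZ in KO mice 2.6% were lower and 2.97% higher. The part of these cells in the values of the 10 genes was not tested.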

How the data were processed

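The deposited table holds estimated counts that the authors made with kallisto, not normalized, for 94080 transcripts in 44 libraries. The reads were single, 75 cycles long and from stranded mRNA libraries, and the submitters' processing notes name kallisto 0.42.4 and the build GRCm38. Every column belonged to a sample (0 columns of no sample). For this report 92284 transcripts were paired with a gene in GENCODE vM21. The other 1796 held 0.351% to 1.33% of a library's counts and were left out. The estimated counts were summed per gene name and rounded. Genes passed filterByExpr (minimum count 10, minimum total 15), and 14893 were fitted with 4 group means in edgeR 4.0.16 (TMM, quasi-likelihood test, R 4.3.3), called at a Benjamini-Hochberg adjusted p under 0.05. Because TMM sets the scale, a change is relative to the bulk of genes. The fit was tested on simulated data in which 200 genes were changed. Depth, given in the report, limits Vgf most, and the floor of 3 counts covers counting error only.

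The 10 genes and the lists around them were chosen with earlier results of these data known. The genes named are the 10, the genes most like each within groups, and the list genes that passed with the lowest p, at most 4 per list for NTZ in KO mice and at most 4 for genotype under PEG. The lists were prohormone maturation, dense core vesicle, endocrine transcription factors, peptide precursors and markers of ECL, D, X/A-like, enterochromaffin, antral, neuron, glia, parietal, chief, neck and SPEM, surface mucous, smooth muscle, fibroblast, immune and squamous cells. Alternatives were library totals or RLE size factors in place of TMM, no filter, only the groups compared, DESeq2 1.42.0, only the most abundant transcript, the pair with one animal number summed, without the libraries numbered 110, within animal numbers below or from 100, and the mitochondrial share as covariate. Chosen after seeing the data were leaving out KO/PEG libraries of high mitochondrial share or WT/NTZ libraries rich in squamous markers, and the length or GC slope as covariate. Promoter sequences are from RefSeq. Figures were drawn with Python 3.11.15 and matplotlib 3.10.9.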

Additional observations from a re-analysis of the deposited data

Results flagged for a closer look

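For 4 of the 10 genes the log2 change with NTZ in KO mice minus that in WT mice passed edgeR's interaction test. The value was -0.91 for Chga, -1.19 for Chgb, -1.39 for Pcsk1 and 1.57 for Pcsk1n. The 3 negative values came from genes that were lower in KO/NTZ than in KO/PEG, and the positive value from Pcsk1n, which was higher. Without the 5 WT/NTZ libraries rich in squamous markers none of these 4 passed, at values of -1.11, -1.22, -1.55 and 1.62 in the same order. None of the 10 genes had a single library far from the rest in the WT/NTZ group, the only group small enough for that check.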

How the results depend on the processing

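No paired analysis was possible because the replicate numbers are only names in accession order. In KO/NTZ versus KO/PEG, Chga, Chgb, Pcsk1, Pcsk1n and Vgf passed under all 13 alternatives. Where a direction or a count below changed, the cause was not tested.

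In KO/PEG versus WT/PEG, Scg5 became 0.25 with library totals, 0.081 within animal numbers, 0.17 with the mitochondrial share, 0.54 with the length slope and 0.52 with the GC slope. Pcsk1n became -0.13 without the libraries numbered 110, -1.08 with the mitochondrial share, -2.37 with the length slope and -1.62 with the GC slope. Cpe became 0.0044 with library totals, 0.12 with the length slope and 0.072 with the GC slope. Genes passed over the whole table numbered 4954 with the length slope and 6163 with the GC slope, against 11119.

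In KO/NTZ versus KO/PEG, Scg3 became 0.027 without the libraries numbered 110, 0.075 with the mitochondrial share, 0.0029 with DESeq2, 0.046 without KO/PEG libraries of high mitochondrial share, 0.038 with the length slope and 0.17 with the GC slope. The number of genes passed overall was 267 with only the groups compared, 256 within animal numbers, 1249 with DESeq2 and 1653 with the length slope.

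In WT/NTZ versus WT/PEG, Pcsk1n became -0.31 with the length slope and -0.15 with the GC slope. Without the squamous-rich libraries Scg5 became 0.0038, Pcsk2 0.056, Cpe -0.088 and Vgf 0.071. Against 153 genes, 0 passed with only the groups compared, 576 within animal numbers, 71 with the length slope and 21 without the squamous-rich libraries.

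In KO/NTZ versus WT/NTZ, Chgb became 0.14 with library totals and 0.31 with the mitochondrial share, which left 3 of the 10 genes and 6837 of all genes passed. In KO/NTZ versus WT/PEG, Cpe became 0.074 with library totals and 0.13 with the mitochondrial share, which left 4 of the 10 genes and 8159 of all genes passed. For the interaction, Cpe became 0.00011 with the pair summed, 0.038 with the mitochondrial share, 0.041 without KO/PEG libraries of high mitochondrial share, 0.24 without the squamous-rich libraries and 0.058 with the GC slope. Of the 10 genes 2 passed with the most abundant transcript and 0 without the squamous-rich libraries. The number of genes passed overall was 283 with the mitochondrial share, 271 with DESeq2, 231 without KO/PEG libraries of high mitochondrial share, 1440 with the length slope, 278 with the GC slope and 30 without the squamous-rich libraries, against 142. Slope covariates were not fitted where the groups' slopes did not overlap, and animal numbers could not be used for the interaction or for KO/NTZ versus WT/PEG.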
